A study of Drosophila melanogaster with 20 samples.

Results

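The 8 genes described here encode the Polycomb repressive complex PRC2 of Drosophila melanogaster and proteins that work with it: E(z), esc, escl, Su(z)12, Pcl, Jarid2, jing and Caf1-55. They were taken by symbol from a table of read counts that lists 17807 genes of the BDGP6 assembly, and all 8 had enough counts to be tested in every comparison. The choice rests on what the proteins do, and it was made with earlier results of these data known.

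PRC2 is the enzyme complex that places methyl groups on lysine 27 of histone H3, a chromatin mark that keeps developmental genes silent through cell divisions. E(z) carries the catalytic domain, esc and escl are alternative WD40-repeat subunits that hold the methylated histone tail and stimulate the enzyme, Su(z)12 is the scaffold, and Caf1-55 is a histone-binding WD40 protein. The enzyme joins either Pcl or the pair Jarid2 and jing, which influence where it goes on chromatin and how active it is there.

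The study asked, as its title states, about histone methylation in preconditioning to endoplasmic reticulum stress, and measured messenger RNA in whole bodies of 2-day-old male flies. The flies belonged to inbred lines of the Drosophila Genetic Reference Panel, a collection of strains derived from wild-caught females, and the labels class each line as beneficial or detrimental. The heat-shocked beneficial lines were RAL69, RAL93, RAL359, RAL387 and RAL409, and the heat-shocked detrimental lines were RAL195, RAL304, RAL335, RAL737 and RAL819. Their flies were kept for 30 min at 35 ± 1 °C and frozen at once. The same 10 lines gave the libraries without heat shock, whose flies were frozen at the same time. All flies had been reared at 25 °C and the labels name no transgene. Each library pooled 10 flies, and there was 1 library per line and treatment, 20 in all, so each line stands as 1 replicate of its class and no line was measured again under the same treatment.

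Library totals ran between 18.4 and 33.7 M counts (M = 1e+06), and levels are given as counts per 1e+06 counts (CPM) scaled by the trimmed mean of M-values. The heat-shock labels were borne out by the chaperone genes in all 20 libraries: Hsp68 stood between 6600 and 10400 CPM with heat shock and between 48.2 and 70.1 CPM without, and DnaJ-1 between 2420 and 2950 CPM with heat shock and between 118 and 135 CPM without. Male tissue was present in every library, with all 17 testis markers counted and 9 of 10 accessory gland markers, while Acp95EF was at 0 throughout. The study left out RAL409, and so do the tests here, which use 18 libraries of 9 lines. Among these, heat-shocked RAL359 stood apart by a trend of level with exon length, 0.16 on the log2 scale for each doubling of length, and RAL819 had 0.10 with heat shock and 0.08 without, while the other 15 libraries lay between -0.09 and 0.04. Jarid2 and jing are the longest of the 8 genes, with 8463 and 9322 exonic bases, and calls that change with this trend removed are given with each gene.

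Heat shock moved genes of the complex in both directions. E(z) and Su(z)12 fell and jing rose in the test over all lines. Without passing that test, esc and Pcl were higher after heat shock in 8 of 9 lines. Jarid2, escl and Caf1-55 were lower in 7 of 9 lines and did not pass it either. The treatments overlapped in all 8 genes, while 3.0% of genes were higher and 2.09% lower with heat shock without overlap. Of the 8 genes, 1 was called higher and 2 lower by edgeR's quasi-likelihood test at an adjusted p under 0.05, against 8.29% of 14270 tested genes called higher and 9.61% called lower (17.9% in all). With the line as a block, each heat-shocked library was set against the other library of the same line. In that fit 3 were called higher (esc, Pcl and jing) and 3 lower (E(z), Su(z)12 and Jarid2), against 16.3% and 18.9% of all genes (35.3% in all). Scaled by library totals, which put the median of all genes at -0.19, 0 of the 8 were called higher and 5 lower (E(z), Su(z)12, escl, Jarid2 and Caf1-55), and over all genes 696 were called higher and 4236 lower. In libraries from whole flies, fewer cells of a type and less RNA per cell cannot be told apart. Nothing states that flies of a line came from separate cultures. With 1 library per line and treatment, the p-values rest on the spread between lines. Without the block this is the spread of levels within a class and treatment, with the 2 libraries of a line taken as independent. With the block it is the spread of the responses of the lines.

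**Figure D1:**
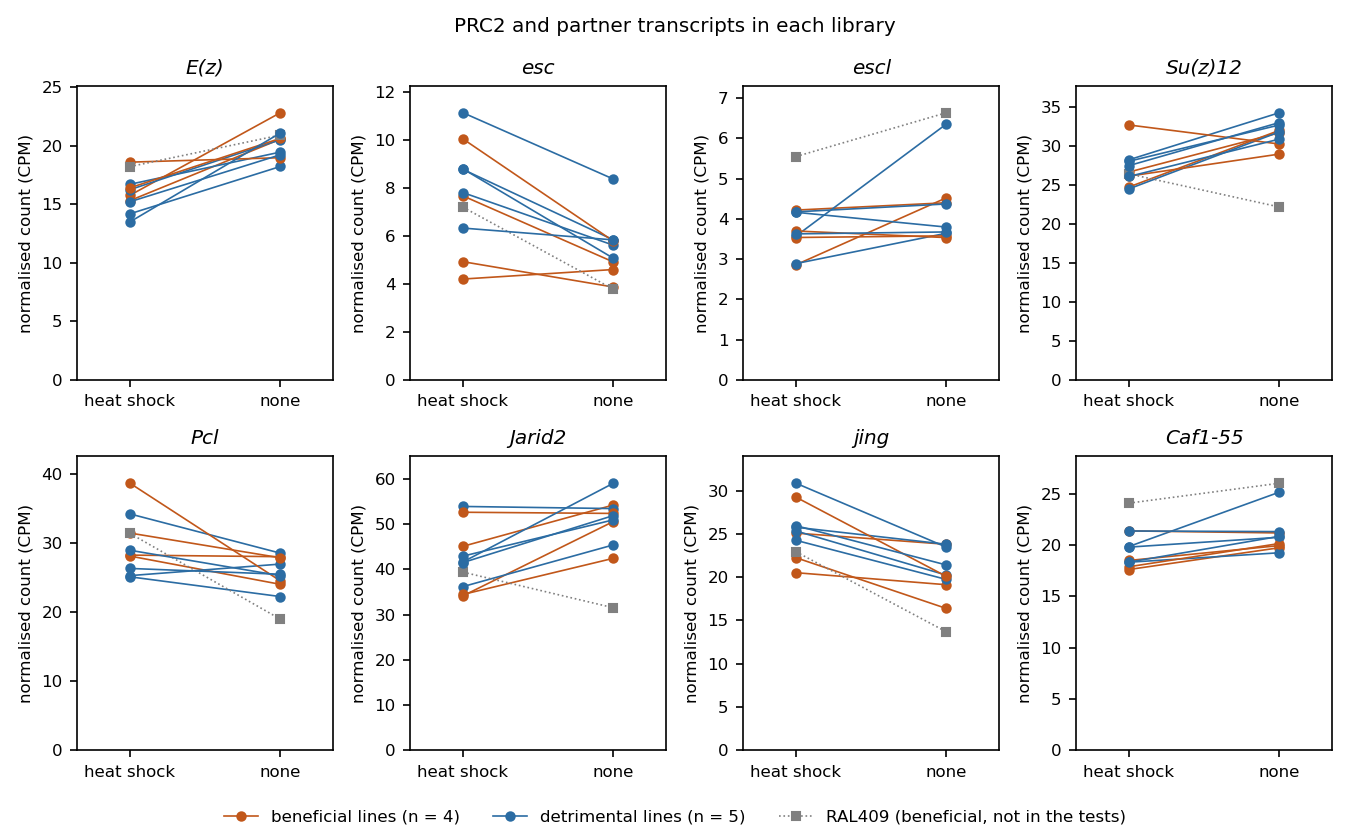
Level in CPM (vertical axes) of each of the 8 genes in each library, with heat-shocked libraries left of libraries without heat shock, a stroke between the 2 libraries of a line, orange for beneficial and blue for detrimental lines, and grey squares for RAL409. E(z) and Su(z)12 lie mostly lower with heat shock, jing mostly higher, and over the 9 tested lines the treatments overlap for all 8 genes.

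E(z) is the catalytic subunit (FBgn0000629, chromosome 3L, 10634575 to 10638130, minus strand). With heat shock it stood at 15.3, 15.8, 16.4 and 18.6 CPM in the beneficial lines and at 13.5, 14.2, 15.2, 16.2 and 16.7 CPM in the detrimental lines, listed from low to high as in all such sentences here. Without heat shock it stood at 19.0, 20.6, 20.6 and 22.8 CPM in the beneficial lines and at 18.2, 19.2, 19.5, 20.5 and 21.1 CPM in the detrimental lines. Every line was lower with heat shock, a pattern shared by 11.7% of the 14179 genes compared line by line, and heat-shocked RAL359 was the only library to reach the range of the libraries without heat shock. The log2 change was -0.35 ± 0.06 (SE, 9 lines), with an adjusted p of 0.000412 by edgeR. By line the difference spanned -0.64 in RAL737 to -0.03 in RAL359. The call held when any 1 line was left out, with changes between -0.42 and -0.32, and under each of 11 other settings.

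Su(z)12, the scaffold that E(z) needs for activity (FBgn0020887, chromosome 3L, 19918242 to 19923462, minus strand), moved the same way. Heat-shocked beneficial lines had 24.7, 26.1, 26.6 and 32.7 CPM, and heat-shocked detrimental lines had 24.5, 26.1, 27.5, 28 and 28.2 CPM. Lines without heat shock had 28.9, 30.2, 31.7 and 32.0 CPM in the beneficial class and 30.9, 31.8, 32.7, 33.0 and 34.2 CPM in the detrimental class. RAL359, at the top of the heat-shocked libraries, was the 1 line of 9 in which Su(z)12 was higher with heat shock, and the other heat-shocked libraries lay below all libraries without it. The log2 change was -0.22 ± 0.06 (SE, 9 lines; edgeR adjusted p = 0.0117). The call was lost without RAL69 (adjusted p = 0.0562) and with RAL409 included (-0.18, adjusted p = 0.0687). With the line as a block it had an adjusted p of 0.00446 and held when any 1 line was left out.

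The alternative WD40 subunits pointed in opposite directions. esc (FBgn0000588, chromosome 2L, 11827204 to 11829405, minus strand) lies within an intron of Pde1c on the same strand and shares no exonic base with it. Heat-shocked beneficial lines had 4.20, 4.92, 7.66 and 10.0 CPM of esc, and heat-shocked detrimental lines had 6.32, 7.80, 8.76, 8.78 and 11.1 CPM. Without heat shock esc was at 3.87, 4.59, 4.91 and 5.78 CPM in the beneficial lines and at 5.06, 5.61, 5.83, 5.83 and 8.36 CPM in the detrimental lines. The treatments overlapped broadly, yet 8 of 9 lines were higher with heat shock and RAL69 was the exception. The log2 change was 0.48 ± 0.17 (SE, 9 lines), with an adjusted p of 0.0533 by edgeR without the block. With the line as a block it was 0.45 with an adjusted p of 0.00284, and the blocked call held when any 1 line was left out. On library totals the unblocked esc value was 0.29 with an adjusted p of 0.189.

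escl (FBgn0032391, chromosome 2L, 11990927 to 11992848, plus strand) shares 53 exonic bases with dgt2 on the same strand, so some reads may belong to either gene. It was between 2.86 and 4.22 CPM with heat shock, with a median of 3.63, and between 3.53 and 6.36 CPM without, with a median of 3.80. In 7 of 9 lines it was lower with heat shock, most of all RAL335, and the treatments overlapped. The log2 change of -0.20 ± 0.13 (SE, 9 lines) did not pass the test, with an edgeR adjusted p of 0.362 without the block and of 0.193 with it. It passed with scaling by library totals, at -0.40 with an adjusted p of 0.0207.

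The balance of the pair can be read per length, as CPM per kilobase of exon (RPKM). The esc to escl ratio ran between 1.41 and 3.01 with heat shock, with a median of 2.57, and between 0.974 and 2.34 without, with a median of 1.42. All 9 lines had the higher ratio with heat shock, RAL335 by the widest step (2.60 with, 0.974 without) and RAL819 by the narrowest (1.61 with, 1.42 without). The sum of esc and escl was higher with heat shock in 8 of 9 lines. E(z) per unit of that sum was lower in all 9, with a median of 0.889 with heat shock and 1.38 without. These ratios are descriptions of mRNA, without a test, and say nothing of protein in the complex.

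**Figure D2:**
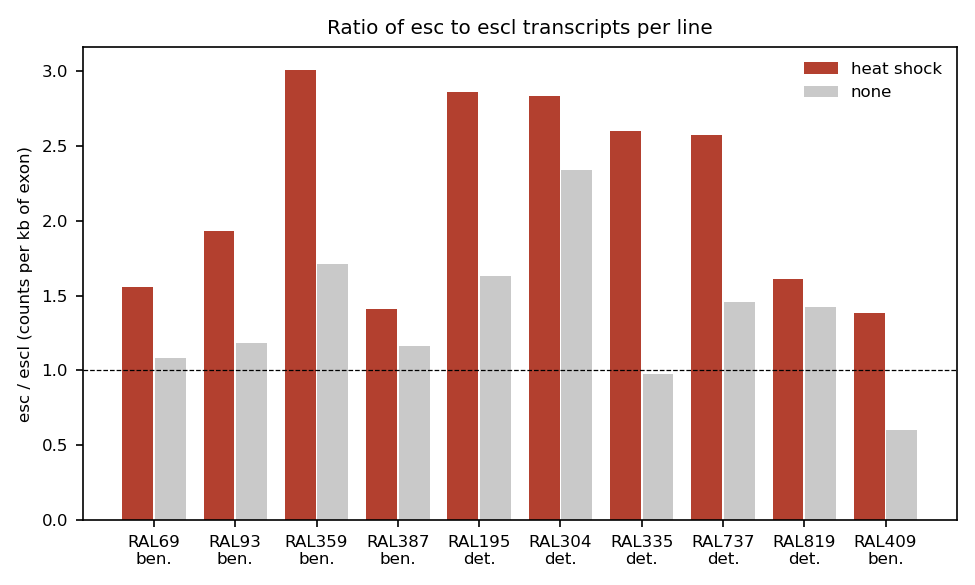
Ratio of esc to escl RPKM (vertical axis) in each line, with the heat-shocked library left of the library without heat shock, RAL409 at the far right, and a dashed line at a ratio of 1. Leaving RAL409 aside, the ratio is higher with heat shock in 9 of 9 lines, with a median of 2.57 with heat shock and 1.42 without.

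Caf1-55 (FBgn0263979, chromosome 3R, 15225576 to 15227564, plus strand) also serves in chromatin assembly, nucleosome remodelling and deacetylase complexes. It had between 17.6 and 21.4 CPM with heat shock, with a median of 18.5, and between 19.2 and 25.1 CPM without, with a median of 20.8. In 7 of 9 lines it was lower and the ranges overlapped widely. Its log2 change of -0.12 ± 0.06 (SE, 9 lines) was not called without the block (edgeR adjusted p = 0.21) or with it (adjusted p = 0.0669). On library totals it was called lower, at -0.31 with an adjusted p of 0.00205.

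Of the accessory subunits, jing rose. This zinc-finger protein, the fly relative of mammalian AEBP2, is encoded by the longest of the 8 loci (FBgn0086655, chromosome 2R, 6502006 to 6621792, plus strand). Heat-shocked beneficial lines had 20.5, 22.2, 25.1 and 29.2 CPM, and heat-shocked detrimental lines had 24.3, 25.3, 25.8, 25.9 and 30.9 CPM. Without heat shock jing was at 16.4, 19.1, 20.1 and 23.8 CPM in the beneficial lines and at 19.7, 20.2, 21.4, 23.5 and 23.8 CPM in the detrimental lines. All 9 lines were higher with heat shock, as were 10.4% of genes, and 7 of the 9 heat-shocked libraries exceeded all libraries without it. The log2 change was 0.29 ± 0.08 (SE, 9 lines; edgeR adjusted p = 0.0229). The call was lost without RAL335 (adjusted p = 0.0517), RAL359 (0.107), RAL387 (0.0523) or RAL737 (0.0503), whereas with the line as a block it held when any 1 line was left out. On library totals jing stood at 0.09 with an adjusted p of 0.427, so its rise is one relative to the median gene.

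Jarid2, the DNA-binding partner of jing in the same form of PRC2 (FBgn0036004, chromosome 3L, 9477038 to 9486530, plus strand), pointed the other way. It had between 34.1 and 53.9 CPM with heat shock, with a median of 41.6, and between 42.4 and 59.0 CPM without, with a median of 51.9. The gene was lower with heat shock in 7 of 9 lines, while RAL304 and RAL359 were within 0.02 of no change on the log2 scale, and the treatments overlapped. The log2 change of -0.27 ± 0.10 (SE, 9 lines) had an adjusted p of 0.0644 by edgeR without the block and of 0.00391 with it, and the blocked call held when any 1 line was left out. With the length trend removed the unblocked change was -0.35 with an adjusted p of 0.00182.

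Pcl, the Tudor and PHD finger protein of the other form of PRC2 (FBgn0003044, chromosome 2R, 18135426 to 18139990, plus strand), had between 25.1 and 38.7 CPM with heat shock, with a median of 28.3, and between 22.3 and 28.5 CPM without, with a median of 25.5. The level was higher with heat shock in 8 of 9 lines, RAL359 and RAL304 reaching the highest levels and RAL195 being the exception. The log2 change of 0.20 ± 0.08 (SE, 9 lines) had an adjusted p of 0.109 by edgeR, and without RAL359 it was 0.11 (adjusted p = 0.484). With the block it was 0.19 with an adjusted p of 0.0341, a call that held in 3 of the 9 fits without 1 line and stood at 0.11 without RAL359 (adjusted p = 0.132). On library totals Pcl was at 0.00, so its direction rests on the scaling.

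**Figure D3:**
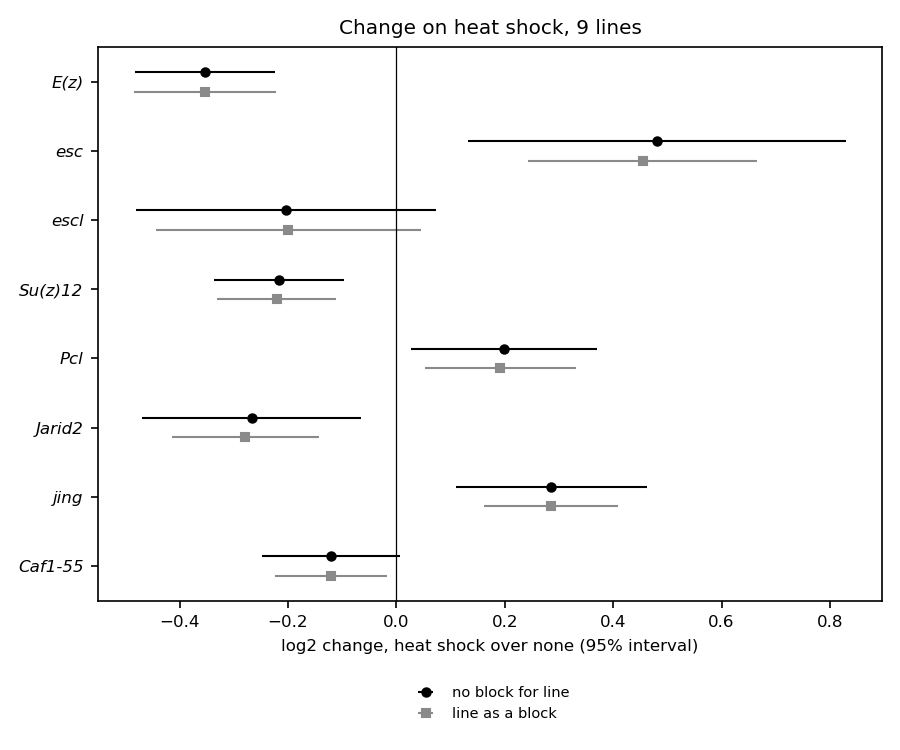
Log2 change with heat shock over none (horizontal axis) for the 8 genes over 9 lines, with circles for the edgeR estimate without the block, squares for the estimate with line as a block, and bars for 95% intervals. Without the block, E(z) at -0.35, Su(z)12 at -0.22 and Jarid2 at -0.27 lie below 0 with their whole intervals. esc at 0.48, jing at 0.29 and Pcl at 0.20 lie above it in the same way. Of these, E(z), Su(z)12 and jing were called without the block.

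Cell type markers were read in the same fit. With heat shock over all lines, 0 testis, accessory gland, muscle, hemocyte or dividing-cell markers were called by edgeR without the block. Of all genes, 8.29% were called higher and 9.61% lower in that fit (17.9% in all). Among these markers, 1 testis and 1 dividing-cell marker had an unadjusted p under 0.05. With the block 3 testis and 1 dividing-cell marker were called higher, and 1 hemocyte marker was called higher and 1 lower. Under that block 16.3% of all genes were called higher and 18.9% lower (35.3% in all). Summed over the 12 dividing-cell markers, levels were between 137 and 189 CPM with heat shock and between 134 and 162 CPM without. Summed over 17 testis markers they were between 1660 and 2220 CPM with heat shock and between 1700 and 2080 CPM without. The sums were 2360 to 5340 CPM with heat shock and 2870 to 6150 CPM without for accessory gland, and 18600 to 32900 CPM with heat shock and 16600 to 27700 CPM without for muscle. For hemocytes they were 87.4 to 257 CPM with heat shock and 112 to 228 CPM without. All of these ranges overlapped between the treatments, which leaves the pairing of libraries by line aside. The log2 estimates were below 0 for all 9 tested accessory gland markers (median -0.145) and above 0 for 9 of 10 muscle markers (median 0.07). They were above 0 for 12 of 17 testis, 6 of 12 dividing-cell and 4 of 8 hemocyte markers. Of 10 neuron markers, 9 had estimates above 0 (median 0.109), and Syx1A and fne were called higher, at 0.31 and 0.42 on the log2 scale. The neuron list summed to between 1080 and 1710 CPM with heat shock and between 1050 and 1790 CPM without. Of 10 gut markers, mex1 was called higher, at 0.72, and the list summed to 5840 to 9800 CPM with heat shock and 5220 to 10700 CPM without. Of 13 female germline and eggshell markers, 7 had too few counts to be tested and the eggshell genes Cp18 and Cp19 were called higher. The list summed to 26.7 to 37.9 CPM with heat shock and 10.3 to 16.4 CPM without. Most of that step was Cp18 alone, which averaged 17.6 ± 2.54 CPM with heat shock and 0.684 ± 0.243 CPM without (SD, 9 lines each). Yp2, Yp3, Cp15 and otu had log2 changes between 0.06 and 0.17 and were not called. With the block 3 neuron markers were called higher. On library totals 0 neuron markers were called, and 1 testis, 1 accessory gland, 1 muscle and 1 dividing-cell marker were called lower. The gut and eggshell counts stayed at 1 and 2 higher. Of all genes 34.6% were called on library totals, most of them lower. The part of these markers in the changes of the 8 genes was not tested.

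Within the beneficial class, 0 of the 8 genes were called higher with heat shock and 1 lower, against 4.27% of genes called higher and 3.36% lower (7.63% in all). With the block 1 was called higher and 1 lower, against 9.16% and 10.2% of genes (19.4% in all). E(z) was the one, at -0.33 ± 0.09 (SE, 4 lines; edgeR adjusted p = 0.0314), and the call was lost without RAL69 (0.159), RAL93 (0.213) or RAL387 (0.136). jing joined it under the block, at 0.29 with an adjusted p of 0.0316, a call lost without RAL359 or RAL387 and with the length trend removed as well. With the trend removed Jarid2 was called lower without the block (-0.37, adjusted p = 0.0414). With the block as well, Jarid2 (-0.37, adjusted p = 0.00504) and Su(z)12 (-0.21, adjusted p = 0.0264) were called lower. Within the detrimental class 0 were called higher and 2 lower, against 5.34% and 4.63% of genes (9.96% in all). With the block 2 were called higher and 3 lower, against 10.3% and 12.6% (22.9% in all). E(z) fell by 0.38 ± 0.08 on the log2 scale (SE, 5 lines; edgeR adjusted p = 0.00526). Su(z)12 fell by 0.28 ± 0.08 (adjusted p = 0.0266), a call lost when any 1 of the 5 detrimental lines was left out, with changes then between -0.29 and -0.25, and with RAL409 included (adjusted p = 0.0848). With the block it had an adjusted p of 0.0103 and was called when any 1 line was left out. The block added esc (0.48, adjusted p = 0.0172), Jarid2 (-0.28, adjusted p = 0.0304) and jing (0.28, adjusted p = 0.0179). Of these blocked calls, that of esc was lost without RAL335 or RAL737, that of Jarid2 without RAL195, RAL335, RAL737 or RAL819, and that of jing without RAL195, RAL335 or RAL819. With the length trend removed Jarid2 was called without the block too (-0.33, adjusted p = 0.0311).

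No difference between the classes in their response passed the test. The difference between the responses, beneficial minus detrimental, was 0.05 for E(z) with a 95% interval of -0.21 to 0.30, and 0.12 for Su(z)12 with an interval of -0.12 to 0.36. It was 0.01 for esc with an interval of -0.68 to 0.69. For jing it was 0.01 with an interval of -0.35 to 0.36, and for Jarid2 0.01 with an interval of -0.40 to 0.41. For escl it was 0.08 with an interval of -0.47 to 0.63, and for Caf1-55 0.03 with an interval of -0.22 to 0.285. The largest estimate of these was that of Pcl, 0.15 with an interval of -0.19 to 0.50. Without the block, a difference between classes as large as the response over all lines lies within the interval for these genes other than E(z). With the line as a block the interval was -0.21 to 0.31 for E(z), -0.24 to 0.26 for jing and -0.275 to 0.268 for Jarid2. The blocked responses over all lines, -0.35, 0.29 and -0.279, were larger than these intervals reach, that of Jarid2 only just. The blocked intervals of Su(z)12 (-0.11 to 0.33), esc (-0.46 to 0.38) and Pcl (-0.13 to 0.43) still held such a difference. None of the 8 genes was called by edgeR or had an unadjusted p under 0.05. Of the 14270 genes tested 0 were called (0.00%), and 42 had an unadjusted p under 0.05. DESeq2 and limma-voom, also without the block, called 0 as well. Fits without the block leave differences between lines in the error of this contrast. By edgeR with the line as a block 0 genes were called and 338 had an unadjusted p under 0.05.

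Beneficial and detrimental lines were also compared under each treatment by itself, the comparison that the study deposited. Without heat shock 0 of the 8 genes and 0 of 13770 genes were called by edgeR (0.00%; 576 had an unadjusted p under 0.05, DESeq2 called 17 and limma-voom 0). With heat shock 0 of the 8 and 0 of 13877 were called (0.00%; 611 had an unadjusted p under 0.05, DESeq2 called 11 and limma-voom 0). None of the 8 had an unadjusted p under 0.05 in either. The largest estimate in both was that of esc, which stood lower in the beneficial class. With heat shock it averaged 6.70 ± 2.7 CPM in the 4 beneficial lines, against 8.56 ± 1.8 CPM in the 5 detrimental lines (SD). Without heat shock the means were 4.79 ± 0.79 CPM for the beneficial class, against 6.14 ± 1.3 CPM for the detrimental class (SD, 4 and 5 lines). The log2 difference was -0.35 with heat shock (95% interval -0.94 to 0.23) and -0.36 without (-0.76 to 0.04), with an edgeR adjusted p of 0.999 in both. In no gene of the 8 were the classes free of overlap under either treatment, as they were for 1.41% of genes with heat shock and 1.27% without.

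For the other 7 genes the class differences, beneficial over detrimental, lay between -0.13 and 0.18 with heat shock and between -0.13 and 0.07 without. E(z) was at 0.12 with heat shock and 0.07 without, with intervals of -0.11 to 0.35 and -0.11 to 0.26. The authors' deposited table gave esc a log2 difference of -0.35 with an adjusted p of 0.999 with heat shock. Without heat shock the authors' deposited table gave it -0.36 with an adjusted p of 1.0. None of the 8 was under 0.1 in either of the authors' deposited tables, in which 26 genes with heat shock and 28 without were.

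**Figure D4:**
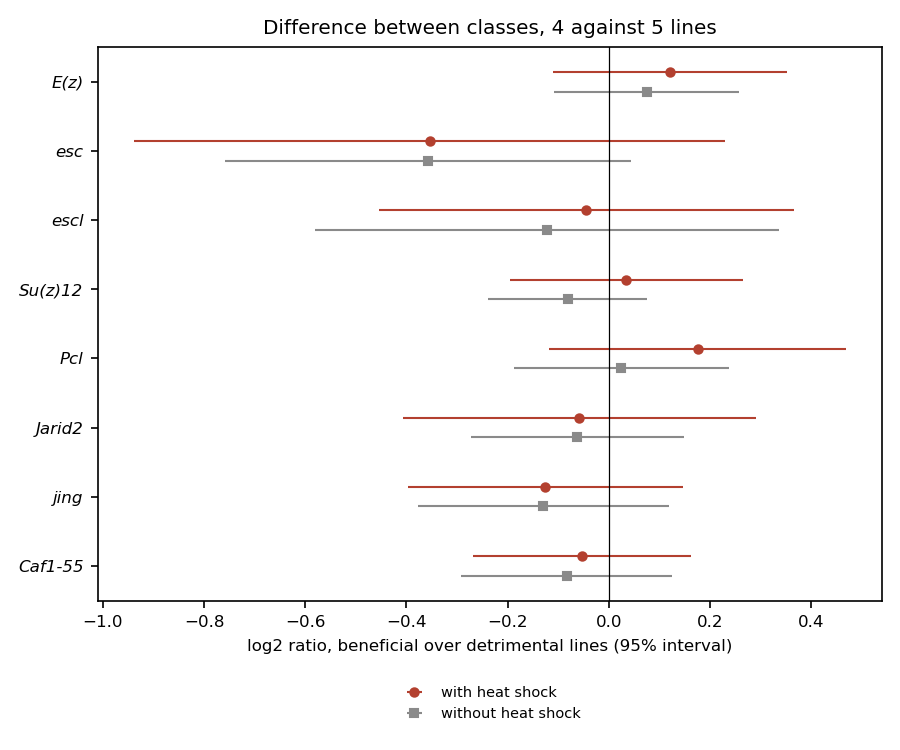
Log2 difference of beneficial over detrimental lines (horizontal axis) for the 8 genes with heat shock and without, with 95% intervals from edgeR. All intervals cross 0, and the lowest estimates are those of esc, at -0.35 with heat shock and -0.36 without.

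The lines were also compared with each other. In a test of all line terms together, with treatment as a covariate, 3 of the 8 genes were called by edgeR, esc, Jarid2 and jing, against 63.6% of 14270 genes. The fitted distance between the highest and the lowest line was 1.15 on the log2 scale for esc (adjusted p = 0.00388). The esc level was highest in RAL304, with 11.1 CPM with heat shock and 8.36 without, and the lowest means over both libraries were those of RAL387, with 4.92 with heat shock and 3.87 without, and RAL69, with 4.20 with heat shock and 4.59 without. The 2 lowest lines are of the beneficial class and the highest is of the detrimental class, while beneficial RAL359 held the second-highest mean level. The esc call held when any 1 line was left out, with adjusted p between 0.00278 and 0.0311.

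Jarid2 spanned 0.49 between lines (adjusted p = 0.0304), with RAL304 highest and RAL387 lowest, and jing spanned 0.49 (adjusted p = 0.029), with RAL819 highest and RAL387 lowest. Without RAL387 both lost their calls and esc alone was called. jing also lost its call without RAL69 (0.0588) or RAL819 (0.0808) and on library totals (0.0939), and Jarid2 without RAL335 (0.0594) and with RAL409 included (0.0538). With the length trend removed both lost their calls, Jarid2 at an adjusted p of 0.102 and jing at 0.297. E(z), the enzyme itself, spanned 0.24 between lines with an adjusted p of 0.618, and Su(z)12 spanned 0.20 with an adjusted p of 0.545. Caf1-55 spanned 0.26, Pcl 0.40 and escl 0.58, with adjusted p of 0.156, 0.158 and 0.36. With RAL409 included Caf1-55 (0.42, adjusted p = 0.0201) and escl (0.90, adjusted p = 0.0404) were called. Pcl was called without RAL359 (adjusted p = 0.0425) and with the length trend removed (0.0396). The median distance between the extreme lines was 0.45 over the 8 genes and 0.68 over all genes tested.

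**Figure D5:**
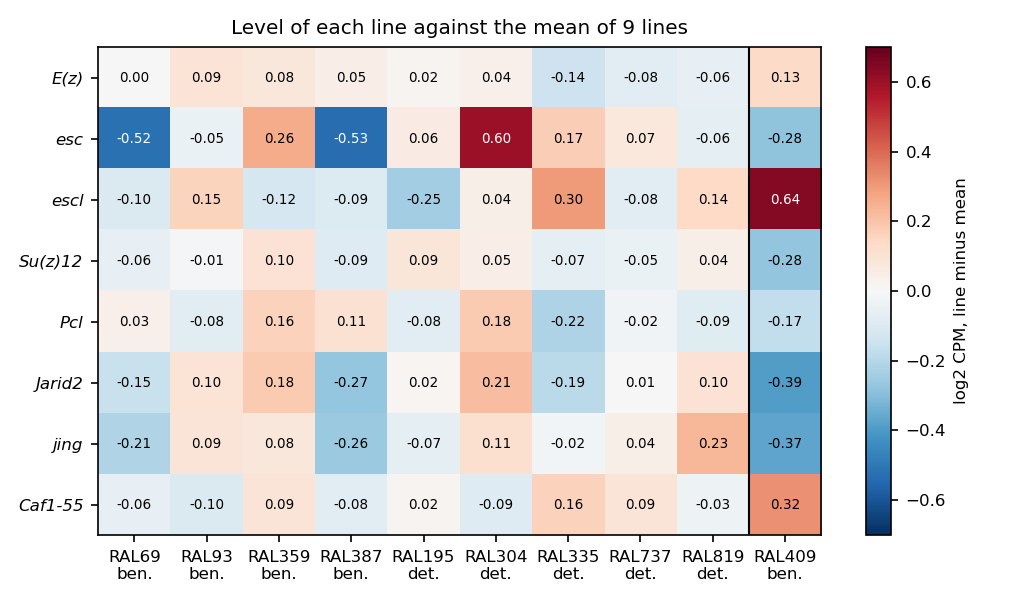
Mean log2 CPM of each line over its 2 libraries, as the deviation from the mean of 9 lines, for the 8 genes (rows) and 10 lines (columns), with RAL409 shown but not used in the mean. esc ranges from 0.60 in RAL304 to -0.53 in RAL387, and E(z) stays within 0.15 of its mean in all 10 lines.

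Levels can be set against each other per length of annotated exons. With heat shock the order by mean RPKM over 9 lines was Caf1-55 (10.5), Pcl (6.75), Su(z)12 (6.63), E(z) (5.92), Jarid2 (5.02), esc (4.54), jing (2.73) and escl (2.01). Without heat shock it was Caf1-55 (11.4), Su(z)12 (7.74), E(z) (7.56), Jarid2 (6.04), Pcl (5.91), esc (3.25), escl (2.33) and jing (2.24). Caf1-55, shared with other complexes, stood above the next gene in both orders without overlap of the line ranges. Without heat shock Pcl and esc were the only other neighbours whose ranges were apart (5.08 to 6.51 and 2.27 to 4.91 RPKM), and with heat shock no other neighbours were. The exon lengths come from the current annotation of all transcripts, and a gene such as jing, with 9322 exonic bases over its transcripts, reads low per length where shorter transcripts are used.

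The other genes of the Polycomb system were read from lists made by function. The first list held 15 genes of PRC1, the PHO complex and the PR-DUB deubiquitinase, with related genes such as crm and sxc. Of these, 2 rose and 5 fell with heat shock, crm among the latter, against 8.29% and 9.61% of all genes. The median log2 change of the list was -0.09, against 0.00 over all genes, and on library totals 1 rose and 9 fell, where 34.6% of all genes were called. With the block 3 of the 15 rose and 7 fell, against 16.3% and 18.9% of all genes. ph-p and ph-d, neighbouring copies of the PRC1 subunit Polyhomeotic, fell by 0.39 and 0.43 on the log2 scale (edgeR adjusted p = 0.00101 and 0.000183), and as near-identical copies they may share reads. phol, a DNA-binding protein of the PHO complex, rose by 0.51 in 9 of 9 lines (adjusted p = 3.22e-06). l(3)73Ah, a relative of the PRC1 subunit Psc, rose by 0.27 (adjusted p = 0.000313), though not on library totals, where it stood at 0.07 with an adjusted p of 0.29.

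Of 9 DNA-binding proteins linked to Polycomb response elements, 0 rose and 4 fell, against 8.29% and 9.61% of all genes, with a list median of -0.13. Dsp1, an HMG-box protein, averaged 31.7 ± 5.78 CPM with heat shock and 51.6 ± 9.23 CPM without (SD, n = 9 lines each) and fell by 0.70 on the log2 scale (edgeR adjusted p = 0.000222). cg, a zinc-finger protein, fell by 0.40 (adjusted p = 0.000394) and Adf1 fell by 0.37 (adjusted p = 2.16e-05), both in 9 of 9 lines. Trl, the GAGA factor, which also binds heat-shock gene promoters, fell by 0.38 in 8 of 9 lines (adjusted p = 0.00309). With the block 2 of the 9 rose and 5 fell, against 16.3% and 18.9% of all genes, and on library totals 0 rose and 6 fell, where 34.6% of all genes were called, most of them lower.

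Of 13 genes that oppose the mark, among them demethylase, acetylase and Trithorax genes, 2 rose and 0 fell, against 8.29% and 9.61% of all genes, with a list median of 0.02. trx, a histone H3 methyltransferase, rose by 0.31 (edgeR adjusted p = 0.0153), and kis, a chromatin remodeller, rose by 0.27 (adjusted p = 0.0128). Both calls were lost on library totals, with adjusted p of 0.318 and 0.471, and 0 then rose and 5 fell, against 34.6% of all genes called there. With the block 3 rose and 3 fell, against 16.3% and 18.9%.

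Among 11 genes of other complexes that hold Caf1-55, 1 rose and 3 fell, against 8.29% and 9.61% of all genes, with a list median of 0.01. With the block 3 rose and 5 fell (16.3% and 18.9% of all genes), and on library totals 0 rose and 5 fell (34.6% of all genes called). HDAC1, the histone deacetylase, had the largest change of the genes named from these lists, with 10.6 ± 0.931 CPM with heat shock and 23.6 ± 3.55 CPM without (SD, n = 9 lines each). It fell by 1.16 on the log2 scale (edgeR adjusted p = 4.45e-08). Sin3A, the corepressor that holds it, fell by 0.53 (adjusted p = 1.32e-05) and Caf1-180, a chromatin assembly subunit, fell by 0.72 (adjusted p = 0.00181), both in 9 of 9 lines. Mi-2, the NuRD remodeller, rose by 0.31 (adjusted p = 0.00601), though not on library totals, where it stood at 0.11 with an adjusted p of 0.23.

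Of 23 developmental genes that Polycomb proteins classically silence, 2 rose and 6 fell, against 8.29% and 9.61% of all genes, with a list median of -0.07. Ubx, a Hox gene, averaged 13.2 ± 1.75 CPM with heat shock and 8.82 ± 0.928 CPM without (SD, n = 9 lines each) and rose by 0.60 in 9 of 9 lines (edgeR adjusted p = 9.29e-05). The homeobox genes vnd, Dr and cad fell by 0.83, 0.62 and 0.29 on the log2 scale (adjusted p = 0.00206, 0.000711 and 0.000981). With the block 3 rose and 7 fell (16.3% and 18.9% of all genes), and on library totals 1 rose and 10 fell (34.6% of all genes called). For the difference between the responses and for the class comparisons 0 genes of any of these lists were called by edgeR.

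Genes with the most similar profile were sought by the root mean square difference of centred log2 CPM over 18 libraries, among 12698 genes. For E(z) the nearest were Nbr (0.10), DCP1 (0.11) and wuho (0.11). For Su(z)12 they were Cog1 (0.08), GCC88 (0.08) and Rox8 (0.08), and for jing ct (0.09), Plc21C (0.09) and psq (0.09). The nearest to Jarid2 were AP-2alpha, chif and grau (0.10 each). Those nearest to Caf1-55 were loco (0.08), Sce (0.09) and casp (0.09), distances not far below its own root mean square deviation of 0.12. For Pcl they were FBgn0003888, which has no symbol in the annotation, gammaCOP and sac (0.10, 0.11 and 0.11). For esc, whose own root mean square deviation was 0.43 against 0.12 to 0.25 for the other 7 genes, the nearest were SP1173 (0.22), kug (0.23) and dpy (0.23). For escl, with a deviation of its own of 0.25, they were AdamTS-B (0.17), CG7564 (0.17) and DCX-EMAP (0.18). No gene of the 8 was among the 3 nearest of another.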

How the data were processed

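Messenger RNA of 20 libraries was read from a table of raw counts per gene deposited by the authors. Per the submitters' processing notes, the sources name Bowtie2 2.2.9, SAMtools 1.12, DESeq2 1.28.1 and BDGP6; the counting tool, its strand setting and its annotation are not given in the sources used here. The authors' deposited DESeq2 tables give a mean signal, a log2 difference, a test score and p-values, of which the log2 difference and p-values are quoted. All columns of the count table matched 1 sample. Of 17807 gene identifiers, 17710 matched the Ensembl annotation and 97 did not. Reads shared with overlapping genes (CG34001 for E(z), pall for Jarid2, dgt2 for escl) cannot be assigned here.

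Counts were tested with edgeR 4.0.16 in R 4.3.3 (filterByExpr, TMM scaling, quasi-likelihood F test) with 1 coefficient per class and treatment, over all genes tested, with Benjamini-Hochberg adjustment and a threshold of 0.05. RAL409 was left out, as in the study. CPM shown in the text were scaled over all 20 libraries. RPKM divide CPM by exonic kilobases. log2 values of single libraries use a prior count of 2. The 2 libraries of an inbred line were treated as a pair in the fit with line as a block: after group means were removed, their deviations correlated at 0.543 to 0.805 in 9 lines. Alternatives were the block, DESeq2 1.42.0, limma-voom (limma 3.58.1), RLE scaling, library totals, no filter, at least 1 CPM in 4 libraries, RAL409 included and each line left out. The block with library totals, the block with each line left out, and removal of each library's length trend (with and without the block) were chosen after seeing the data. Scripts were tested on simulated counts.

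The 8 genes and all lists were chosen with earlier results of these data known. All 8 are named for the heat-shock test over all lines, the difference between the responses and the comparison of lines. The other comparisons name only some of them. From each other list up to 4 called genes with the smallest p in the heat-shock test over all lines are named, and the 3 most similar profiles of each of the 8 genes. The marker genes Syx1A, fne, mex1, Cp18 and Cp19 and the untested Acp95EF were named after their values were seen.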

Additional observations from a re-analysis of the deposited data

Results flagged for a closer look

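In 64 sets of 4 or 5 values, 5 held a value whose gap to the nearest other value was large for the range of the set. A set held the libraries of 1 class and treatment, or the responses of the lines of 1 class. Chance flags about 1 in 20 of independent sets. Library sets of the beneficial class were checked with and without RAL409, so the sets were not all independent. Among heat-shocked beneficial lines with RAL409 included, Su(z)12 stood at 32.7 CPM in RAL359, against 24.7 to 26.6 CPM in the others. Among heat-shocked detrimental lines, jing stood at 30.9 CPM in RAL819, against 24.3 to 26.0 CPM in the others. RAL359 with heat shock and RAL819 were the libraries whose levels rose most with exon length (0.16 and 0.10 on the log2 scale per doubling), and the part of this trend in both values was not tested.

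Among detrimental lines without heat shock, esc stood at 8.36 CPM in RAL304, against 5.06 to 5.83 CPM in the others, and RAL304 was also the highest line for esc with heat shock. In the same set escl stood at 6.36 CPM in RAL335, against 3.64 to 4.37 CPM in the others. That library gave the lowest esc to escl ratio of the 9 lines without heat shock, 0.974. Among beneficial lines without heat shock with RAL409 included, Caf1-55 stood at 26.0 CPM in RAL409, against 19.7 to 21.2 CPM in the others.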

How the results depend on the processing

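No direction of a called gene reversed under any alternative. Pcl, called over all lines with the block and with the block and the length trend removed, stood at -0.01 with the block and library totals, and at -0.10 in detrimental lines, called in neither. E(z) with heat shock over all lines was called in all of them. With the replicate block (line as a block), 6 of the 8 genes were called with heat shock over all lines, against 3 without it, 2 in beneficial lines, against 1, and 5 in detrimental lines, against 2; all-gene counts were 5032 against 2555, 2767 against 1089 and 3265 against 1422. With library totals 5, 3 and 4 of the 8 were called (4932, 2178 and 3443 genes), and with the block and totals 6, 4 and 5 (8102, 5014 and 6524 genes). On totals, 696 genes were higher and 4236 lower over all lines, against 1183 and 1372. With the length trend removed 2 were called in beneficial lines, and with the block as well 6, 3 and 5 (5299, 2894 and 3442 genes). With RAL409 included 1 was called in detrimental lines. Leaving out each line gave 2 to 4 over all lines (5 to 6 with the block), 0 to 1 in beneficial lines (0 to 3), 1 to 2 in detrimental lines (2 to 5) and 1 to 4 for differences between lines. Over all genes, leaving out each line gave 628 to 1117 calls in beneficial and 936 to 1419 in detrimental lines. DESeq2 called 11 genes between classes with heat shock and 17 without, none of the 8 among them, against 0 by edgeR. esc with heat shock was called by DESeq2 (adjusted p = 0.0285), RLE scaling (0.0494), the stricter filter (0.0486), RAL409 included (0.0184) and without RAL69 (0.0336). Jarid2 was called by limma-voom (0.0479) and without RAL304 (0.0371) or RAL359 (0.0176). Of 1328 values for single genes, 1200 kept their side of the threshold, 99 passed it newly and 29 no longer did. The causes were not tested.

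Depth limits esc and escl most, with 105 to 278 and 64 to 157 counts per library in the 9 lines. With 1 library per line and treatment, a response particular to a line and the scatter of its libraries cannot be told apart.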

Other observations

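RAL409, the beneficial line left out of the tests, stood apart in its library without heat shock, where levels fell with exon length by 0.24 on the log2 scale per doubling. In that library esc (3.77 CPM), Su(z)12 (22.2), Pcl (19.0), Jarid2 (31.5) and jing (13.7) lay below all 9 other lines, and escl (6.64) and Caf1-55 (26.0) lay above them. E(z), at 20.9 CPM, lay within their range. In its heat-shocked library esc (7.19 CPM), Su(z)12 (26.4), Pcl (31.4), Jarid2 (39.4), jing (22.9) and E(z) (18.2) lay within the range of the other lines, and escl (5.55) and Caf1-55 (24.1) above it. The log2 difference with heat shock in RAL409 was -0.20 for E(z), 0.92 for esc, 0.25 for Su(z)12, 0.72 for Pcl, 0.32 for Jarid2 and 0.74 for jing, so that Su(z)12 and Jarid2 went against most other lines. The esc to escl ratio of RPKM was 1.38 with heat shock and 0.604 without.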
